A study of Mus musculus with 10 samples.

Results

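The genes followed here make or remove oxidants, and were measured in mouse aorta, the large elastic artery fed by the heart: the NADPH oxidase subunit genes Nox4, Cybb and Cyba, the superoxide dismutase genes Sod1, Sod2 and Sod3, the hydrogen peroxide removers Cat, Gpx1 and Gpx3, and the haem oxygenase gene Hmox1. The members were chosen by gene name, each name matched 1 row, and they are 10 of 35667 genes counted. All 10 were among the 15710 genes with enough counts to be tested. RNA sequencing of whole aorta gave 10 libraries, 5 titled as knockout (KO) of Ovgp1, which encodes the secreted oviductal glycoprotein 1, and 5 titled as wild type (WT), all from C57BL/6 mice of 12 weeks, with no treatment named. The genotype field names Ovgp1 for KO replicate 1 but Ovgp2 to Ovgp5 for KO replicates 2 to 5. Sex, the kind of deletion and whether each library is a separate animal are not stated, so p-values measure only the spread between these libraries.

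Facts of the whole series limit every comparison below. Total counts ran from 24434745 to 26694590 in KO and from 21242030 to 24396394 in WT. Ovgp1 itself was higher in the libraries labelled KO, at 17.8 to 21.9 against 1.98 to 4.69 CPM (counts scaled to a common library size), so directions follow labels that the targeted gene goes against. The 5 KO libraries were nearly copies of each other. Chi-square divided by its degrees of freedom, about 1 for a pair that differs by counting error alone, ranged from 1.77 to 3.25 among KO pairs but from 11.0 to 154 among WT pairs. P-values from 5 against 5 libraries therefore rest on a KO spread far below that of WT, and each member's value is given beside a fit in which the KO counts were summed to 1 sample. Of all genes, 2242 (14.3%) met the adjusted p threshold of 0.05 with 5 against 5 libraries, 6.84% as higher and 7.43% as lower in KO. That number was between 1287 and 1393 when a single KO library, whichever it was, was dropped. With KO as 1 sample 7 genes (0.0446%) passed, and 585 (3.72%) had an unadjusted p under 0.05, 2.36% as higher. Without WT replicate 1, 2, 3, 4 or 5 that fit called 2, 5, 1, 2 and 1 genes. Markers of smooth muscle, the labelled tissue's main cell, were abundant throughout, with Acta2 at 14722 to 25019.6 CPM in WT and 22404 to 22968 CPM in KO. In whole tissue, fewer cells of a type and less RNA per cell cannot be told apart.

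NADPH oxidases move electrons from NADPH onto oxygen. The NOX2 enzyme, whose catalytic subunit is made from Cybb, serves phagocytes and is switched on by cytosolic partners, whereas the NOX4 enzyme of smooth muscle and other wall cells is active without them and releases mainly hydrogen peroxide. Both sit in the membrane with the subunit made from Cyba. Superoxide dismutases turn superoxide into hydrogen peroxide in the cytosol (Sod1), the mitochondrial matrix (Sod2) and the extracellular space (Sod3), and catalase and the glutathione peroxidases then remove the peroxide. Haem oxygenase breaks haem down to biliverdin, carbon monoxide and iron, and its gene is a classic target of the stress factor NRF2.

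Cybb was the 1 gene of the 10 called between the groups, while its partner Cyba and the wall oxidase Nox4 were not, so the sequence just upstream of each is shown. The 250 bases before the RefSeq start (GRCm38.p6) are written 5′ to 3′ on the strand of the gene, with the GGGCGG box that the factor Sp1 binds and the CCAAT box in capitals wherever they lie, on either strand. RefSeq promoter entries matched 8 of the 10 members; Sod3 and Hmox1 had none.
Nox4, chr7:87246399-87246648, plus strand: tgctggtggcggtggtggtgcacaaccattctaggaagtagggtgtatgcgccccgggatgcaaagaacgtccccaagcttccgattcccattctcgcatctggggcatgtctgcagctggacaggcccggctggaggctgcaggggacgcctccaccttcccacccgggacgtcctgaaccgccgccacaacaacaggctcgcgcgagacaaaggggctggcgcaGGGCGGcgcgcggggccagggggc
Cybb, chrX:9469325-9469574, minus strand: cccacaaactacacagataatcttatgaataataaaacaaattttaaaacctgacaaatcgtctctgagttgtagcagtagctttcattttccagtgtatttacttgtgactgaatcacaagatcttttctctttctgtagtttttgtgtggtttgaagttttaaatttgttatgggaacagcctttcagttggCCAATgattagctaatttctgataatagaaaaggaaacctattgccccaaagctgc
Cyba, chr8:122432941-122433190, minus strand: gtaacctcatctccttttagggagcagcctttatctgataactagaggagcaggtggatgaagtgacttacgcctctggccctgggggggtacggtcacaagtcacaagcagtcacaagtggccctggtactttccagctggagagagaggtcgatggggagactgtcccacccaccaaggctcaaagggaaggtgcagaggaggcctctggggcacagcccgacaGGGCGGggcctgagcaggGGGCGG
The window of Nox4 held 20 CG dinucleotides, that of Cyba 6 and that of Cybb 1, against a median of 6 over all 32851 promoter entries. Fewer CG dinucleotides than in Cybb were found in 7.87% of entries, and fewer than in Nox4 in 82.1%. The GGGCGG box began 24 bases before the start in Nox4 and 24 and 6 bases before it in Cyba, and 32.7% of all entries hold one in this window. The CCAAT box began 56 bases before the start in Cybb, and 33.8% of all entries hold one. GAGGAA, a form of the core bound by the myeloid factor PU.1, was in none of the 3 windows and in 23.3% of all. Other forms of that core were not searched for, so its absence does not mean that a window lacks a PU.1 core. No 2 of these matches overlapped. The Nox4 and Cybb windows lie inside the spans that GENCODE M21 gives these genes, and none of the 3 windows touches an annotated exon. A match of letters is a description and not a measured binding site.

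Sod3 and Gpx1 were the most abundant of the 10 per length and Cybb the least, in both groups. As CPM per kb of merged exons (GENCODE M21), Sod3 stood at 339 in KO and 319.9 in WT, and Gpx1 at 284 and 316. Cybb stood at 0.763 and 0.344. In WT the order was Sod3, Gpx1, Gpx3, Cyba, Nox4, Sod1, Cat, Sod2, Hmox1 and Cybb. The ranges of neighbours over the 5 WT libraries overlapped for Sod3 and Gpx1, for each step from Gpx3 to Cat, and for Sod2 and Hmox1. In KO they overlapped only from Nox4 through Gpx3 to Cyba. Merged exons include retained introns and little-used ends, and the order depended on that choice. By the longest protein-coding transcript, a length chosen after seeing the data, Sod1 had 289 in KO and 317 CPM per kb in WT and stood at rank 3, because its transcript is 641 bases against 3970 bases of merged exons. Gpx1 then led at 381 and 424, and Cybb remained last at 0.932 and 0.421. The plot of level per length shows both choices.

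**Figure D1:**
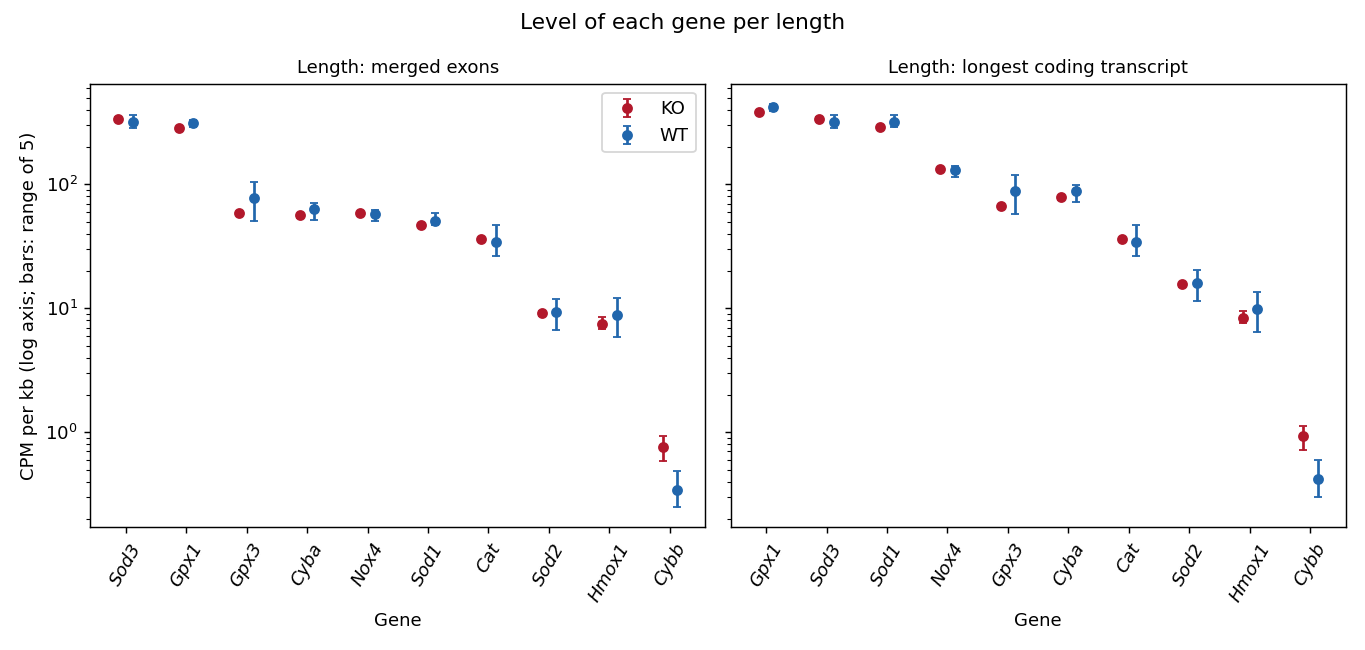
Level of each gene as CPM per kb on a log axis, by merged exon length (left) and by the longest coding transcript (right); points are means of 5 libraries and bars their range, red for KO and blue for WT. Cybb is lowest in both panels, and Sod1 moves from rank 6 to rank 3 with the shorter length.

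Cybb (ENSMUSG00000015340; chromosome X, 9435252 to 9487771 in GRCm38) was the 1 member of 10 that passed the 5 against 5 test, and it was higher in the libraries labelled KO. It had 5.38, 3.80, 4.68, 3.40 and 4.88 CPM in KO replicates 1 to 5 and 1.90, 2.10, 2.84, 1.44 and 1.72 CPM in WT replicates 1 to 5. Every KO library lay above every WT library, as did 7.38% of all genes tested. Cybb was 2.22-fold higher in KO (95% limits 1.65 to 2.98; log2 difference 1.15, SE 0.20; edgeR adjusted p = 0.00345). Summing KO gave 2.21-fold (95% limits 1.25 to 3.91), and the call was lost (adjusted p = 0.999, unadjusted p = 0.0132); by that unadjusted p 1 of 10 members stood out, as did 3.72% of all genes. One call in 10 members compares with 14.3% over all genes, so the share of members called was not above the background.

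The counts behind Cybb were small. They were 135, 101, 125, 93 and 132 in the KO libraries and 42, 49, 57, 35 and 37 in the WT libraries. The coefficient of variation of its CPM was 18.4% among KO libraries, where counting error alone gives about 9.24%. For Nox4 the same values were 0.935% and 0.868%. In each of the 17 alternatives to the 5 against 5 fit that were run Cybb kept its call, with log2 differences from 0.96 to 1.35. All of them count the nearly identical KO libraries as separate replicates, so they do not address that limit.

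Of 12 macrophage markers 2 passed as higher in KO and 0 as lower, with a median log2 difference of -0.01, beside 6.84% of all genes called higher. Adgre1, which encodes the macrophage surface protein F4/80, had 7.95 to 9.89 CPM in KO and 3.44 to 5.64 in WT (adjusted p = 0.00202). Csf1r, the receptor that macrophages need for survival, had 38.2 to 44.8 against 22.4 to 31.9 CPM (adjusted p = 0.00211). They were named after their values were seen, and a median of -0.01 means that other macrophage markers were lower in KO. The summed markers overlapped, at 386 to 397 CPM in KO and 269.7 to 488 in WT, and the most abundant, Lyz2, had 114 ± 3.76 against 96.8 ± 11.5 CPM (SD, n = 5 each; adjusted p = 0.0586). Lyz2 passed without WT replicate 2 (0.00870) or 3 (0.0382). It also passed without the low-count filter (0.0075), with DESeq2 (0.0343) and with limma-voom (7.5e-05). The summed markers of B and plasma cells, cells that can also carry NOX2, were 274 to 279 CPM in KO and 8.11 to 25.2 in WT, with Ighm, the heavy chain of IgM, the most abundant and 4 of 5 tested markers higher. Neutrophil markers summed to 0.987 to 1.79 and 0.861 to 3.71 CPM, and 6 of the 8 had 0 counts in 1 or more libraries. The part of these cells in the difference of Cybb was not tested.

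Nox4 (ENSMUSG00000030562; chromosome 7, 87246096 to 87398710), the main oxidase gene of the wall by level, was nearly the same in both groups. It had 505, 504, 501, 493 and 499 CPM in KO and 484, 517, 428, 531 and 505 CPM in WT, where replicate 3 was lowest and the KO values lay inside the WT range. Fitted to all 10 libraries, the fold of Nox4 was 1.01 (95% limits 0.927 to 1.11; log2 difference 0.02 with SE 0.06; adjusted p = 0.853), against limits of 0.789 to 1.30 in the fit with KO summed. Per length of its longest coding transcript Nox4 stood at 131 CPM per kb in WT against 0.421 for Cybb.

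Cyba (ENSMUSG00000006519; chromosome 8, 122424776 to 122432930), the membrane partner of both enzymes, had 58.9, 55.9, 60.4, 57.6 and 59.0 CPM in KO and 71.4, 73.2, 72.8, 53.3 and 56.4 CPM in WT. WT replicates 1, 2 and 3 were above every KO library, replicate 4 below and replicate 5 inside the KO range. The KO to WT fold came to 0.893 for Cyba (95% limits 0.779 to 1.02, log2 difference -0.16, SE 0.09, adjusted p = 0.251); summing KO widened the limits to 0.640 to 1.24. Without WT replicates 4 and 5, which had the highest brown adipocyte markers and the lowest Cyba, the log2 difference was -0.31 (adjusted p = 0.00137). A lower value follows from dropping the lowest WT libraries, so this is no separate test. Without replicates 1 and 3 the log2 difference was -0.05 (0.748).

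**Figure D2:**
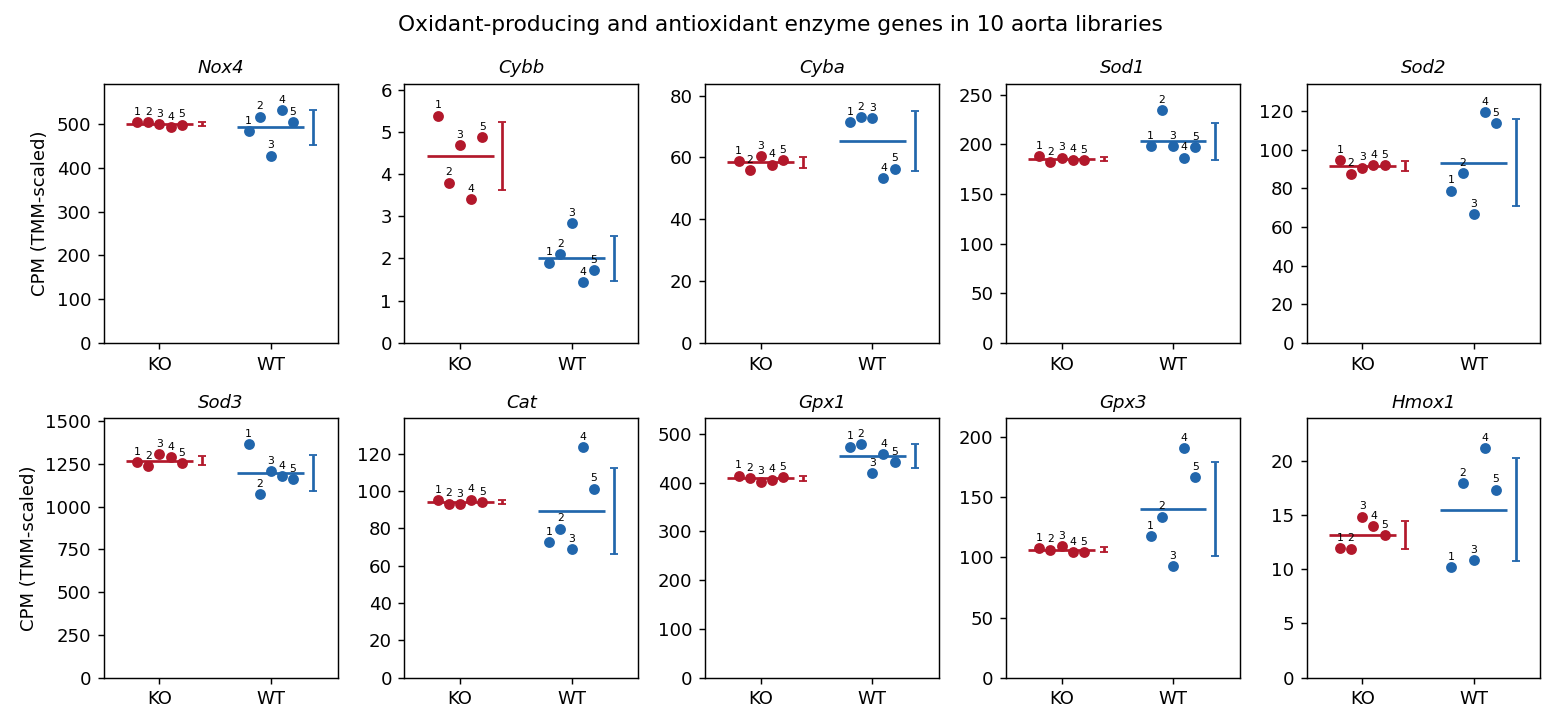
CPM of each of the 10 genes in the 10 libraries (points, numbered by replicate), with the mean of 5 libraries (line) and ± 1 SD (bar), red for KO and blue for WT; each axis starts at 0. Except for Cybb and Hmox1 the KO points are tightly bunched, Cybb and Gpx1 are the genes whose groups do not overlap, and WT replicates 4 and 5 are highest for Sod2, Cat and Gpx3.

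Among 14 other subunits and regulators of NADPH oxidases, 7 were tested, 1 passed as higher and 1 as lower, beside 6.84% and 7.43% of all genes. The median log2 difference was -0.13 against -0.02 over all genes. Rac2, the blood-cell GTPase that helps switch on NOX2, was higher in KO, at 2.95 to 3.98 against 1.50 to 2.40 CPM (log2 difference 0.88, SE 0.15, adjusted p = 0.00366; 0.999 with KO as 1 sample). Ncf1 and Ncf4, which encode cytosolic partners of NOX2, did not pass, with log2 differences of -0.32 and 0.28 (adjusted p = 0.342 and 0.375). They, and Nox1 after them, are named for their role and not by the rule. Poldip2, whose product acts on NOX4, was lower in KO, at 58.3 to 60.8 against 65.0 to 73.1 CPM (log2 difference -0.19, SE 0.04, adjusted p = 0.0167). Its call was lost without KO replicate 1 (0.0511), 2 (0.0522) or 4 (0.0501) and without the low-count filter (0.263). Rac1, the most abundant of the list, had 233 ± 3.94 and 254 ± 36.9 CPM (SD, n = 5 each). Nox1, the remaining oxidase of smooth muscle, was too low to be tested, at 0.0595 and 0.0987 CPM on average.

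None of the 3 superoxide dismutase genes passed the test. Sod3 (ENSMUSG00000072941; chromosome 5, 52363791 to 52371418), the extracellular form, had 1261, 1234, 1308, 1287 and 1254 CPM in KO and 1363, 1070.2, 1207, 1179 and 1159 CPM in WT, where replicate 1 was above and the other 4 were below every KO library. Sod3 had a KO to WT fold of 1.06 with 95% limits of 0.962 to 1.17 (log2 difference 0.09, SE 0.06, adjusted p = 0.412), and limits of 0.810 to 1.39 once KO was summed. WT replicates 1 and 3 had the highest shares of mitochondrial counts, 16.2% and 13.2% against 6.75% to 9.59% in the other WT and 7.61% to 7.88% in the KO libraries. Without them the log2 difference of Sod3 was 0.17 (adjusted p = 0.0173). They were also its highest WT libraries, so a rise follows from dropping them. Without replicates 4 and 5 the log2 difference was 0.06 (0.583).

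Sod1 (ENSMUSG00000022982; chromosome 16, 90220754 to 90226329), the copper and zinc enzyme of the cytosol, had 188, 182, 187, 185 and 184 CPM in KO and 198, 235, 198, 187 and 197 CPM in WT. WT replicate 2 was high, replicate 4 lay inside the KO range and the other 3 just above it. Fitted to all 10 libraries, the fold of Sod1 was 0.913 (95% limits 0.833 to 1.000; log2 difference -0.13 with SE 0.06; adjusted p = 0.168), against limits of 0.713 to 1.17 in the fit with KO summed.

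Sod2 (ENSMUSG00000006818; chromosome 17, 13006846 to 13040063), the manganese enzyme of mitochondria, had 94.5, 87.6, 90.8, 92.2 and 92.0 CPM in KO. It had 78.8, 88.0, 66.8, 119 and 114 CPM in WT, so WT replicates 4 and 5 were above every KO library, replicates 1 and 3 below, and replicate 2 inside their range. The KO to WT fold came to 0.979 for Sod2 (95% limits 0.793 to 1.21, log2 difference -0.03, SE 0.14, adjusted p = 0.912); summing KO widened the limits to 0.593 to 1.61.

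Gpx1 (ENSMUSG00000063856; chromosome 9, 108338903 to 108340343), the selenium-containing glutathione peroxidase of the cytosol and mitochondria, was the second gene whose groups did not overlap, here with KO below. It had 415, 409.6, 402, 406 and 412 CPM in KO and 474, 479.6, 420.3, 459 and 442 CPM in WT, where replicate 3 came within a few CPM of the KO libraries. All 5 KO libraries lay below all 5 WT libraries for 7.22% of genes tested. Gpx1 had a KO to WT fold of 0.898 with 95% limits of 0.835 to 0.967 (log2 difference -0.15, SE 0.05, adjusted p = 0.0553), and limits of 0.720 to 1.12 once KO was summed. Gpx1 thus did not pass over all genes; it passed without WT replicate 3 (adjusted p = 0.0220), with DESeq2 (0.0344) and with limma-voom (0.00215), while without the low-count filter the log2 difference was -0.10 (0.356).

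Gpx3 (ENSMUSG00000018339; chromosome 11, 54902453 to 54910377), the secreted glutathione peroxidase found in plasma, spread most widely among the WT libraries of the peroxide removers. It had 108, 106, 109, 104 and 105 CPM in KO and 118, 134, 92.5, 191 and 167 CPM in WT, with WT replicate 3 below and the other 4 above every KO library. Fitted to all 10 libraries, the fold of Gpx3 was 0.757 (95% limits 0.592 to 0.969; log2 difference -0.40 with SE 0.16; adjusted p = 0.124), against limits of 0.416 to 1.38 in the fit with KO summed. Without WT replicate 3, the lowest, the log2 difference was -0.52 (adjusted p = 0.0157). It was -0.26 (0.218) without replicate 4, the highest, and -0.11 (0.469) without replicates 4 and 5. Markers of kidney tubule, the main source of the plasma enzyme, summed to at most 0.770 CPM in any library, and none of the 5 was tested.

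Cat (ENSMUSG00000027187; chromosome 2, 103453849 to 103485160), catalase of the peroxisome, had 95.02, 93.3, 92.8, 95.4 and 94.1 CPM in KO and 72.7, 79.9, 69.1, 123 and 101 CPM in WT. WT replicates 4 and 5 were above every KO library and replicates 1, 2 and 3 below, so the WT libraries fell on both sides of KO. The KO to WT fold came to 1.05 for Cat (95% limits 0.851 to 1.30, log2 difference 0.08, SE 0.14, adjusted p = 0.764); summing KO widened the limits to 0.637 to 1.74. Without WT replicates 4 and 5, the only WT libraries above KO, the log2 difference of Cat was 0.35 (adjusted p = 0.00229). Without WT replicates 1 and 3, the lowest, it was -0.09 (0.574). These shifts follow from dropping extreme libraries and are no separate test.

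Hmox1 (ENSMUSG00000005413; chromosome 8, 75093621 to 75100589), the inducible haem oxygenase, was low, with 11.9, 11.9, 14.8, 14.0 and 13.1 CPM in KO. The WT libraries had 10.2, 17.9, 10.8, 21.2 and 17.3 CPM: replicates 1 and 3 were below every KO library and replicates 2, 4 and 5 above. Hmox1 had a KO to WT fold of 0.848 with 95% limits of 0.636 to 1.13 (log2 difference -0.24, SE 0.19, adjusted p = 0.439), and limits of 0.441 to 1.64 once KO was summed. Without WT replicates 1 and 3, the lowest, the log2 difference of Hmox1 was -0.50 (adjusted p = 0.00252). A lower value follows from dropping the lowest WT libraries, so this is no separate test. Without replicates 4 and 5 the log2 difference was 0.01 (0.966).

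**Figure D3:**
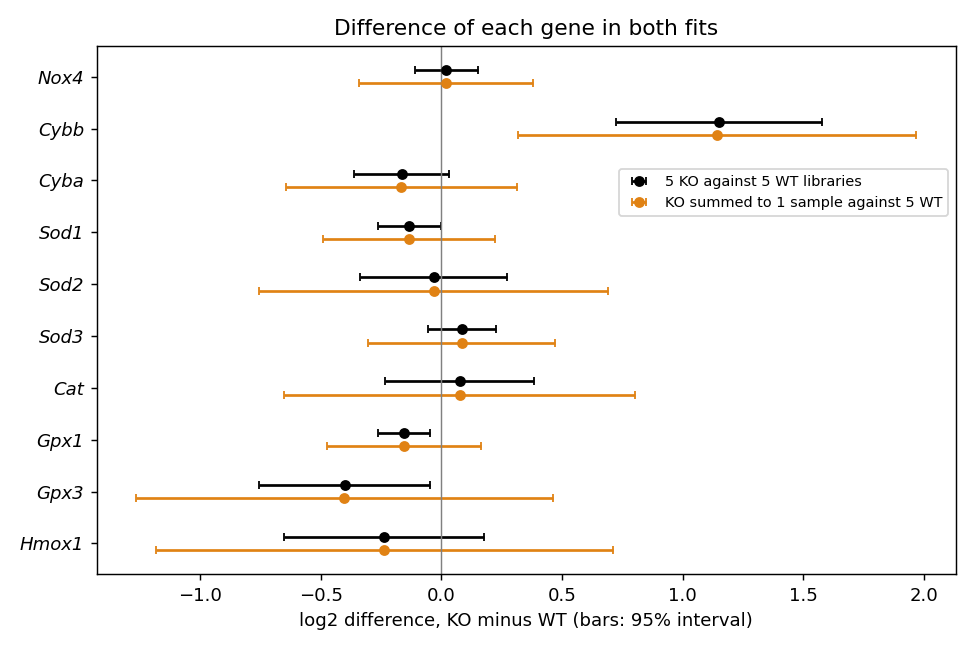
Log2 difference (KO minus WT) of each gene with its 95% interval, from 5 against 5 libraries (black) and with KO summed to 1 sample (orange). The estimates hardly differ between the fits but the intervals widen; that of Cybb stays above 0 in both, without passing the adjusted threshold in the second.

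Over the 10 members, the median log2 difference was -0.08 against -0.02 over all genes tested. The ratio of the highest to the lowest WT library was 2.08 for Hmox1, 2.06 for Gpx3, 1.97 for Cybb, 1.79 for Sod2 and 1.79 for Cat. It was 1.14 for Gpx1, 1.24 for Nox4, 1.26 for Sod1, 1.27 for Sod3 and 1.37 for Cyba. Among KO libraries the ratio exceeded 1.1 only for Cybb (1.58) and Hmox1 (1.25), the 2 genes with the fewest counts.

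Sod2, Cat and Gpx3 shared an order among the WT libraries, highest in replicate 4, then 5, then 2, then 1, and lowest in replicate 3. Hmox1 was likewise highest in replicate 4 and low in replicates 1 and 3, and Cybb ran the other way, lowest in replicate 4 and highest in replicate 3. Brown adipocyte markers, of which Ucp1 was the most abundant, summed to 151, 147, 37.5, 743 and 535 CPM in WT replicates 1 to 5 and to 179 to 192 CPM in KO. Endothelial markers, led by Pecam1, summed to 219.8, 532, 157, 644 and 532 CPM in WT and 280.5 to 291 in KO. White adipocyte markers, led by Cfd, summed to 169, 113, 200.0, 450.3 and 334 CPM in WT and 265 to 278 in KO. Replicates 4 and 5 were thus highest in brown and white adipocyte markers, and replicates 2, 4 and 5 in endothelial ones. Smooth muscle markers went the other way, at 40075, 32168, 40149, 26429 and 29292 CPM in WT and 36301 to 36952 in KO. No gene of these 4 marker lists had 0 counts in any library. The part of cell makeup in the spread of these enzymes was not tested.

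**Figure D4:**
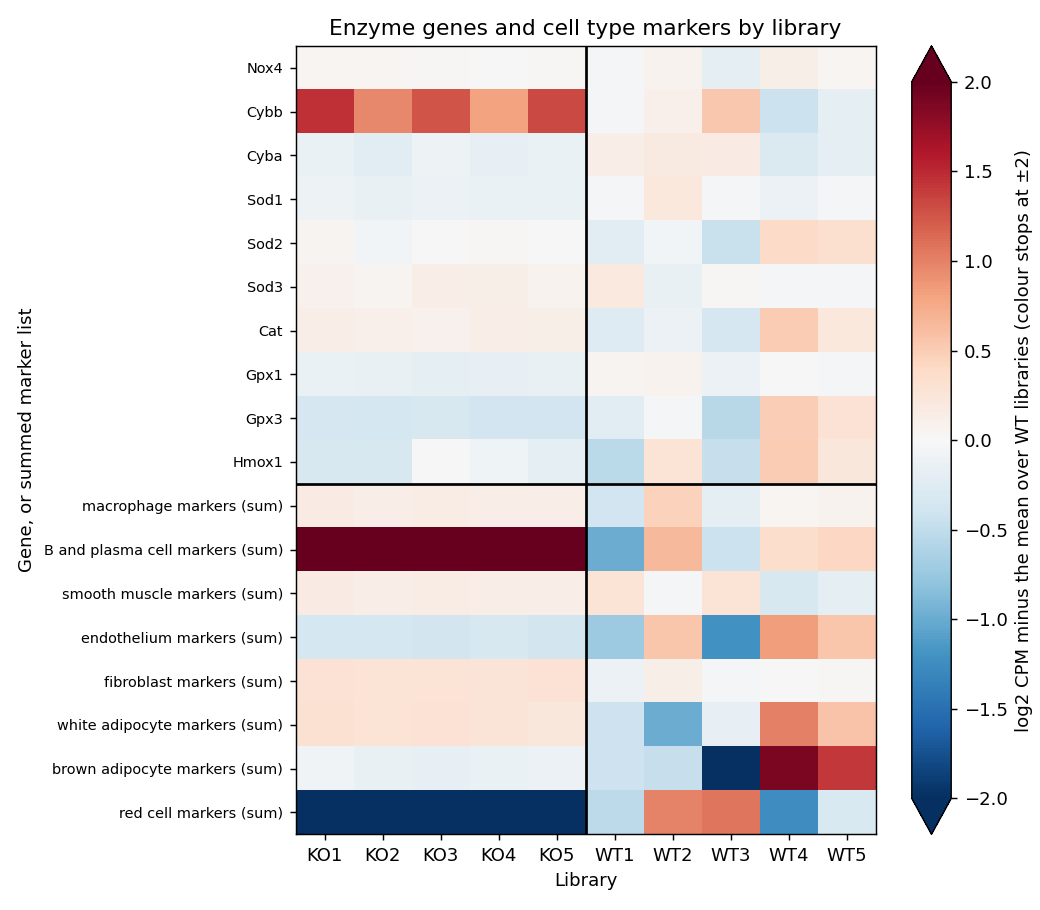
Log2 CPM of each gene (upper rows) and of summed marker lists (lower rows) in each library, relative to the mean over the 5 WT libraries; red is higher, blue lower, and colour stops at a log2 value of 2 in either direction. Sod2, Cat, Gpx3 and Hmox1 are reddest in WT replicate 4, as are the endothelial and adipocyte sums, and the KO columns look alike.

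By the SD of log2 CPM (prior count 2) over the WT libraries, Hmox1 (0.47), Gpx3 (0.41) and Sod2 (0.35) ranked first, with Cat and Cybb just behind, and the genes most like them were sought over all 10 libraries by the root mean square difference of centred log2 CPM. Hmox1 varied by 0.322 on that scale, and among the nearest genes Rasa3 differed from it by 0.0910 and Fxyd5 by 0.0980. Gpx3 varied by 0.315, and Arhgap31 (0.0610), Dbi (0.0720) and Slc25a51 (0.0770) lay nearest. Sod2 varied by 0.225, and Chpt1 (0.0490), the malic enzyme gene Me1 (0.0550) and Sucla2 (0.0560), a subunit of a mitochondrial citric acid cycle enzyme, lay nearest. The KO libraries are near copies and marker levels differ among the WT libraries, so the 10 points are not independent and this is a description.

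Of 21 genes of glutathione synthesis and use, 17 were tested, with a median log2 difference of -0.07. In KO 0 were higher and 1 was lower, beside 6.84% and 7.43% of all genes. The 1 was Gpx4, the selenium-containing peroxidase that clears lipid peroxides from membranes. It had 216, 219.9, 219, 228 and 221 CPM in KO and 248, 273, 249.6, 293 and 284 CPM in WT. All KO libraries lay below all WT libraries (log2 difference -0.29, SE 0.06, adjusted p = 0.00727), and the summed KO gave a fold of 0.820 (95% limits 0.647 to 1.04, adjusted p = 0.999). The glutathione transferases Gstm1 and Gstm2, the most abundant of the list, differed by -0.20 and -0.14 on the log2 scale, short of the threshold. Without WT replicate 3 the list held 1 higher and 3 lower genes, and without WT replicate 1 it held 2 lower.

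Of 17 peroxiredoxin and thioredoxin genes, all tested, 0 passed in either direction (median log2 difference -0.11). Prdx1, a cytosolic peroxiredoxin, had 309 ± 5.17 and 316 ± 31.8 CPM, and Txnip, which binds and inhibits thioredoxin, 609 ± 5.72 and 681 ± 55.5 CPM (SD, n = 5 each; adjusted p = 0.0944). Txnip passed without WT replicate 1, at a log2 difference of -0.19 (adjusted p = 0.0291), and the list then held 2 lower genes, against 1 without WT replicate 3.

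Of 25 genes of the NRF2 pathway, 24 were tested and 0 passed in either direction (median log2 difference -0.08). Nqo1, Gclc, Gclm, Srxn1 and Txnrd1, usual targets named here for that role, had log2 differences from -0.23 (Srxn1) to 0.15 (Nqo1), with adjusted p from 0.342 to 0.993. Sqstm1, an autophagy adaptor, had 609.8 ± 1.57 and 615 ± 40.7 CPM. Fth1, the ferritin heavy chain that stores iron, had 3332 ± 28.3 and 4031 ± 536 CPM (SD, n = 5 each; log2 difference -0.27, adjusted p = 0.0547). It passed without WT replicate 4, at -0.34 (adjusted p = 0.00714), and without WT replicates 4 and 5 (0.000487). Fth1 also passed without the low-count filter (0.0377), with DESeq2 (0.0337) and with limma-voom (0.00773). The list held 1 higher and 1 lower gene without WT replicate 4, and 1 lower without WT replicate 2 or 3.

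Of 18 genes of haem breakdown and iron handling, 15 were tested, 3 were higher and 0 lower in KO (median log2 difference 0.02). Over all genes, 6.84% were called higher and 7.43% lower. Slc40a1, the iron exporter ferroportin, had 2.34 to 3.55 against 0.848 to 2.14 CPM (log2 difference 0.93, adjusted p = 0.0182). Tfrc, the transferrin receptor, had a log2 difference of 0.24 (adjusted p = 0.0268) and Fech, the last enzyme of haem synthesis, 0.20 (0.0200). The call of Slc40a1 was lost without KO replicate 1 (0.0524) or 2 (0.0520). Those of Tfrc and Fech were lost without KO replicate 1, 3, 4 or 5 (adjusted p 0.0528 to 0.0711), and that of Tfrc also without the low-count filter (0.0516). The list held 0 calls without KO replicate 1, and 4 higher and 1 lower without WT replicate 4. Lrp1, an abundant receptor that takes up the haem carrier haemopexin, had a log2 difference of 0.04. Red cell markers, a source of haem, summed to 19.1 to 21.3 CPM in KO and 65.8 to 327 in WT, with all 5 lower and Hbb-bs the most abundant; their part in the values of Hmox1 was not tested.

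Of 15 genes that supply metals and selenium to these enzymes, 14 were tested, 0 were higher and 2 lower in KO (median log2 difference -0.11). Over all genes, 6.84% were called higher and 7.43% lower. Atox1, the copper chaperone of the secretory route, had 36.4, 40.3, 40.0, 38.1 and 38.5 CPM in KO and 49.0, 51.1, 49.6, 44.4 and 41.3 CPM in WT. The groups did not overlap (log2 difference -0.28, SE 0.06, adjusted p = 0.0132; 0.999 with KO as 1 sample). Slc39a14, a zinc, iron and manganese importer, had a log2 difference of -0.35 (adjusted p = 0.0234). Its call was lost when a single KO library, whichever of the 5 it was, was dropped (0.0549 to 0.0592). It was also lost without WT replicate 5 (0.0562) and without WT replicates 4 and 5 (log2 difference -0.24, 0.0800). Selenop, the plasma carrier of selenium, had 734 ± 4.60 and 663 ± 101 CPM, and Selenow 305 ± 6.14 and 381 ± 75.0 CPM (SD, n = 5 each), and neither passed. Selenop passed without WT replicate 2, at a log2 difference of 0.26 (adjusted p = 0.00459) against 0.15, and Selenow without WT replicate 4, at -0.40 (0.0146) against -0.32. Without WT replicate 2 the list held 2 higher and 2 lower genes.

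Of 12 other sources of oxidants, 7 were tested and 0 passed (median log2 difference 0.07). Xdh, xanthine dehydrogenase, had 43.4, 88.1, 45.9, 127 and 116 CPM in WT replicates 1 to 5 and 47.4 to 49.4 CPM in KO (adjusted p = 0.0898). Its high WT libraries were replicates 2, 4 and 5, and it passed without WT replicate 1 (log2 difference -0.94, adjusted p = 0.0273) or 3 (-0.95, 0.0336). Without WT replicate 2 the list held 1 higher gene. Aox1, aldehyde oxidase, had a log2 difference of -0.07. Of 21 peroxisome genes, all tested, 0 passed (median log2 difference -0.02), with Acaa1a, an enzyme of peroxisomal fatty acid oxidation, at 0.03; 1 gene passed as lower without WT replicate 2 and 1 as higher without WT replicate 4. The 4 lists with 0 calls by edgeR's adjusted p held, at an unadjusted p under 0.05, 5 peroxiredoxin and thioredoxin genes, 3 of the NRF2 pathway, 2 of the peroxisome and 1 other oxidant source. Among the genes that edgeR tested, DESeq2 called 0, 1, 0 and 0 of these 4 lists in that order, and limma-voom 9, 12, 8 and 3. The pathway lists share genes, so their counts are not separate. Srxn1 and Txnrd1, for example, are in both the thioredoxin and NRF2 lists, and Fth1 is in both the NRF2 and iron lists. Over its own set of genes DESeq2 called 1 other oxidant source, a gene too low for the edgeR filter, as lower. With KO as 1 sample 0 genes of the 8 lists passed an adjusted p of 0.05, and 1, Rac2, had an unadjusted p under 0.05.

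**Figure D5:**
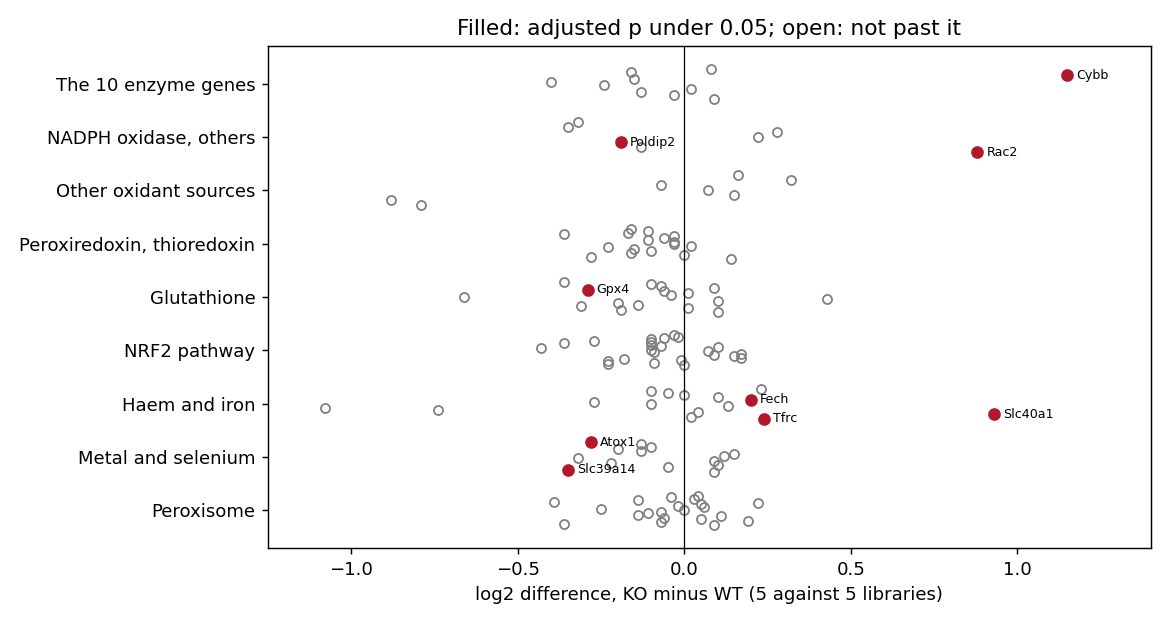
Log2 difference (KO minus WT, 5 against 5 libraries) of each tested gene, for the 10 enzyme genes and the 8 pathway lists; filled and named points passed an adjusted p of 0.05, open points did not. Calls are few and split in direction, and Cybb, Rac2 and Slc40a1 stand farthest to the right.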

How the data were processed

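Gene expression levels were read in 10 aorta libraries, 5 titled KO and 5 WT. Per the labels' protocols, RNA from frozen aortas was taken up in Trizol, and 1 ug of it went into an Illumina TruSeq preparation. Counts per Ensembl gene, whole numbers, are what the authors deposited, per the file headers. Bowtie 0.12.2 is listed in the submitters' processing notes beside 2 genome builds, mm8 and mm9, without saying which step used which; counting tool, annotation and strand setting are not given. Coordinates and exon lengths come from matching 35519 of 35667 identifiers to GENCODE M21 (GRCm38), and no other annotated exon overlapped those of the 10 members.

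Counts were tested in edgeR 4.0.16 by its quasi-likelihood test (under R 4.3.3, with TMM, filterByExpr with minimum count 10 and minimum total 15, robust), 5 KO against 5 WT, and again with the KO counts summed to 1 sample that is assumed to vary as WT does. The same 15710 genes were used in both. P-values were adjusted by Benjamini-Hochberg over all of them, at 0.05; every adjusted p is from edgeR unless another tool is named. The SE is the log2 difference over the square root of F. CPM are TMM-scaled, log2 CPM use a prior count of 2, and the CV of KO values lay above counting error most clearly for Sod3 (2.29% against 0.545%), Cybb and Hmox1. Alternatives used other size factors, no filter, DESeq2 1.42.0, limma-voom (limma 3.58.1), a replicate block and left-out libraries. Every limma-voom value is from a fit that also weighted each library by an estimated quality. The members and lists were chosen with earlier results of these data known. Named are all members, of each pathway list the 2 most abundant genes and up to 4 calls with the smallest p, the top marker of each cell type by level, and the 3 genes most like the 3 most variable members (mean log2 CPM of at least 1); exceptions are marked, and some genes so chosen are left out of the text. Of the 224 list entries, those under a symbol not in the files (Ero1a, Flvcr1, Flvcr2) were left out. Of the other cell types, striated muscle markers (led by Tnnt2) summed to 73.6 to 77.7 CPM in KO and 56.2 to 150.2 in WT. Schwann cell markers (Prx) summed to 51.1 to 56.8 and 24.0 to 39.9, and fibroblast markers (Dcn) to 2712 to 2761 and 2074 to 2437. In both lists every KO sum lay above every WT sum. Of 7 fibroblast markers 4 passed as higher and 0 as lower in KO, and of 5 Schwann cell markers 2 and 0. Over all genes 6.84% passed as higher and 7.43% as lower. The most abundant neutrophil and kidney tubule markers were Csf3r and Lrp2.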

Additional observations from a re-analysis of the deposited data

Results flagged for a closer look

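Sod1 in WT replicate 2, at 235 CPM, lay far from the other 4 WT libraries, which had 187 to 198 CPM; the gap to its nearest neighbour was 0.763 of the group's range, above Dixon's 95% limit for 5 samples. It was 1 of 20 gene and group combinations checked, and chance flags about 1 in 20. Without that library the log2 difference of Sod1 was -0.06 (edgeR adjusted p = 0.306).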

How the results depend on the processing

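Under 17 alternatives to the 5 against 5 fit, Cybb passed in each, and leaving out single libraries gave 1 to 3 members called, the 3 (Cybb, Gpx1 and Gpx3) without WT replicate 3. Without WT replicates 1 and 3 there were 5 (Cybb and Sod3 higher, Gpx1, Gpx3 and Hmox1 lower). Without WT replicates 4 and 5 there were 3 (Cybb and Cat higher, Cyba lower). DESeq2 called 2 (Cybb, Gpx1) and limma-voom 7 (Cybb and Sod3 higher, Sod1, Sod2, Gpx1, Gpx3 and Hmox1 lower). In that order, the calls over all genes were 4386, 3139, 2788 and 6477, against 2242 in the main fit, so they rose there too. The pairs left out were the extreme WT libraries for Sod3, Gpx3, Hmox1, Cat and Cyba, and those calls follow from that choice. With KO as 1 sample 0 members passed in any of the 7 alternatives run. Over all genes, single left-out libraries gave 1287 to 2678 calls, leaving out WT replicates 1 and 3 gave 4386 and limma-voom 6477; with KO as 1 sample these were 1 to 5 with a WT library left out and 125 without the low-count filter. Without that filter the 5 against 5 calls were 1294 higher and 676 lower, against 1075 and 1167. The log2 differences of that fit moved up by a median of 0.05 from the main fit. Values given for single genes without the filter, with 5 against 5 libraries, include this common shift. The cause of these shifts was not tested.

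Some log2 differences that passed in no main comparison changed sign. Nox4 became -0.03 without WT replicate 3 (also with KO as 1 sample), -0.03 without WT replicates 1 and 3 and -0.01 with limma-voom; Cyba became 0.02 and Cat -0.09 with limma-voom, and Cat -0.09 without WT replicates 1 and 3. Sod2 became 0.02 without the filter (0.04 with KO as 1 sample), 0.07 without WT replicate 4 and 0.05 without WT replicate 5 (the same with KO as 1 sample), and 0.23 without both. Without WT replicates 4 and 5, Hmox1 became 0.01, Sqstm1 0.03 and Ucp1 1.04. Prdx1 became 0.02 and Sqstm1 0.04 without the filter, Prdx1 0.05, Sqstm1 0.02 and Acaa1a -0.04 without WT replicate 2, Prdx1 0.01 with limma-voom, and Sqstm1 0.01 without WT replicate 5.

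Deviations of KO and WT libraries with the same replicate number correlated at -0.04 to 0.042, and 2 of 5 KO libraries correlated best with their own number. KO libraries differ little beyond counting error, so this check cannot show whether the numbers pair the libraries. With the number as a replicate block 1319 genes and 1 member (Cybb, log2 difference 1.16, adjusted p = 0.0124) passed; Poldip2 (0.0613), Tfrc (0.0643) and Fech (0.0813) did not, and Ucp1 became 0.02. Leaving out single libraries moved Sod2 between -0.13 and 0.07 (-0.13 without WT replicate 3, also with KO summed), Prdx1 down to -0.06 and Acaa1a up to 0.11. Depth limits Cybb most, at 35 to 57 counts per WT library.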
